A study of Mus musculus with 6 samples.

Results

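Expression of 9 genes of triglyceride synthesis, Gpam, Agpat2, Agpat3, Lpin2, Dgat1, Dgat2, Mogat1, Pnpla3 and Gpd1, was examined in mouse liver after knockdown of Rnf10, which encodes a RING finger ubiquitin ligase. The genes were taken by name as glycerolipid acyltransferases and related enzymes, with earlier results of these data known, and make up 9 of the 55487 genes in the count table. The animals were male wild-type C57BL/6J mice kept on normal chow, with livers collected at 17 weeks of age. In 3 mice a control siRNA joined to N-acetylgalactosamine (GalNAc-siNC) was given subcutaneously, and 3 other mice received GalNAc-siRnf10, an siRNA of a single sequence against Rnf10 on the same ligand, which the study's methods call GalNAc-siRnf10-2. N-acetylgalactosamine binds the asialoglycoprotein receptor of hepatocytes, so uptake is directed to these cells, whereas the RNA was extracted from whole liver and includes the other cells of the organ. Each mouse gave 1 library, and all libraries carried the same batch label.

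Triglyceride is built on glycerol-3-phosphate, which glycerol-3-phosphate dehydrogenase makes from an intermediate of glycolysis. Acyltransferases add fatty acids to give lysophosphatidic acid and then phosphatidic acid, lipin phosphatases remove the phosphate, and diacylglycerol acyltransferases add the last fatty acid. In the liver, the product is stored in lipid droplets or exported in very low density lipoprotein, and phosphatidic acid and diacylglycerol also feed phospholipid synthesis.

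RefSeq promoter windows on GRCm38.p6 were found for 6 of the 9 genes, Gpam, Agpat2, Agpat3, Lpin2, Mogat1 and Pnpla3, with 9 windows in all. The 250 bases before the transcription start are shown for Agpat2, which was lower after knockdown, for Lpin2, which was higher, and for its relative Lpin1, which had the largest difference of the route. Each reads 5′ to 3′ toward the start, and capitals mark the GC box GGGCGG and the E-box CACGTG.
Agpat2, chr2:26604418-26604667, minus strand: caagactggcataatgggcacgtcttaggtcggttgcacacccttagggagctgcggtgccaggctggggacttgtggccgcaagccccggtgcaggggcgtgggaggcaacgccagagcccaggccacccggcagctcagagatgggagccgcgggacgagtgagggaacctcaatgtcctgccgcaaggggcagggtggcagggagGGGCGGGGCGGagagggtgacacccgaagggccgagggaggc
Lpin2, chr17:71183282-71183531, plus strand: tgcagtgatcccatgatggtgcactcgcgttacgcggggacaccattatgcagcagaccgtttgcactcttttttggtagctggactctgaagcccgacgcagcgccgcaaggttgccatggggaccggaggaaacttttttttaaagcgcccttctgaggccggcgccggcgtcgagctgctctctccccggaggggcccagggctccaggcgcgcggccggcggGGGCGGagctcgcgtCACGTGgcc
Lpin1, chr12:16610967-16611216, minus strand: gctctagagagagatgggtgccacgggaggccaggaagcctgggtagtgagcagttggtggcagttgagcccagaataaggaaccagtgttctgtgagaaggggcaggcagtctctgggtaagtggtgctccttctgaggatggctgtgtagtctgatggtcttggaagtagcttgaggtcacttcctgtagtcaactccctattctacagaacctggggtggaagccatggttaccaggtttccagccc
None of these windows overlapped an annotated exon. The Agpat2 window held 2 overlapping GC boxes, 42 and 37 bases before the start. The Lpin2 window, which precedes 1 of 3 annotated starts of the gene, held a GC box 24 bases and an E-box 9 bases before the start. It lies inside the annotated span of the gene, which begins at 71182560. None of the 4 motifs searched on both strands, which also included the CCAAT box CCAAT and the cyclic AMP response element TGACGTCA, was found in the Lpin1 window. Of 32851 mouse windows of this length, 6.02% held the E-box, 32.7% the GC box, 33.8% the CCAAT box and 1.55% the cyclic AMP response element. Over the 9 windows of the genes studied, the E-box was found in 1, the GC box in 5, the CCAAT box in 3 and the cyclic AMP response element in 1. Of the Lpin2 windows not shown, 1 held a GC box, the other held 3 CCAAT boxes, and neither held an E-box. Counts per gene do not show which start of Lpin2 was used, and a match of letters is a description and not a binding site.

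Total counts were between 26854377 and 33058645 per library, and 14046 genes passed the filter on low counts. Rnf10 fell by 57.0% in the GalNAc-siRnf10 group, from a normalised count of 4148 ± 347 (SD, n = 3 mice) in the GalNAc-siNC group to 1784 ± 41.8 (SD, n = 3) (edgeR, adjusted p = 3.29e-09). Normalised counts are counts scaled to the same library size. GalNAc-siNC mouse 1 stood apart from its group, with a chi-square per gene of 30.9 and 30.0 against the other control mice, 10.4 between those, and 4.73 to 5.43 between GalNAc-siRnf10 mice. Results that depended on this library are given with and without it. Of the hepatocyte markers, 5 of the 9 found in the table were higher and 1, Fgb (log2 fold change -0.83), was lower. Over all tested genes 6.71% were higher and 7.28% lower by the same test, a background for each marker list here. The summed normalised count of the hepatocyte markers was 2036000 to 2134000 in control livers and 2753000 to 2837000 after knockdown. Alb alone made up 1090400 to 1255000 in control livers and 1775500 to 1844400 after knockdown. Albumin mRNA took 3.72% to 4.36% of the counts in control livers and 5.93% to 6.08% in the knockdown group. None of 10 macrophage markers passed the test, and their sums overlapped (6594 to 7982 against 7309 to 7712). Among endothelial markers, 2 of 8 were higher (2604 to 2652 against 2776 to 2941), with a median log2 fold change of 0.23. Among stellate cell markers 3 of 8 were higher (2901 to 3155 against 3563 to 3667), but their median log2 fold change was -3.2e-06. Within that sum Dcn had 1391 to 1526 in control livers and 1840 to 1907 after knockdown. Of 6 biliary markers 5 were tested and 1 was lower, Spp1, with sums of 2037 to 2079 against 1122 to 1154. Of 8 adipocyte markers 3 had no count in any library, 2 were tested and 1 of them, Lipe, was lower. The part of these shifts in the results below was not tested. In whole liver, fewer cells of a type and less RNA per cell cannot be told apart.

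Expression of the synthesis genes differed by modest amounts and in both directions. Lpin2 and Dgat2 rose after Rnf10 knockdown, by 36.5% and 13.0%, whereas Gpd1 and Agpat2 fell, by 22.0% and 18.0%. Gpam, Agpat3 and Dgat1 did not pass the test, and Mogat1 and Pnpla3 did not pass the filter on low counts. A gene was called at an adjusted p under 0.05 from the edgeR quasi-likelihood F-test, Benjamini-Hochberg corrected over all tested genes. Of the 9 genes 7 were tested and 4 were called, beside 14.0% of all tested genes. With each mouse left out in turn, between 3 and 6 of the genes were called. Without GalNAc-siNC mouse 1 there were 6, with Gpam and Agpat3 added as lower, beside 2864 of 14343 tested genes called in all. Without GalNAc-siNC mouse 2 there were 5, with Gpam added, beside 1633 of 14473. Without GalNAc-siNC mouse 3 or any of the GalNAc-siRnf10 mice there were 3, with Dgat2 lost. All calls were 1900 of 14396 tested genes without GalNAc-siNC mouse 3. Leaving out a GalNAc-siRnf10 mouse lowered all calls to between 1053 and 1128, of 14386 to 14491 tested genes. The 2 that rose stand beside 6.71% of tested genes called higher, and the 2 that fell beside 7.28% called lower. In 6 of the 7 tested genes the groups did not overlap, which was so for 32.8% of all tested genes. The median log2 fold change of the 7 was -0.12 (0.0022 over all tested genes), and their median absolute log2 fold change was 0.18, the same as that of all tested genes to 2 decimals.

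**Figure D1:**
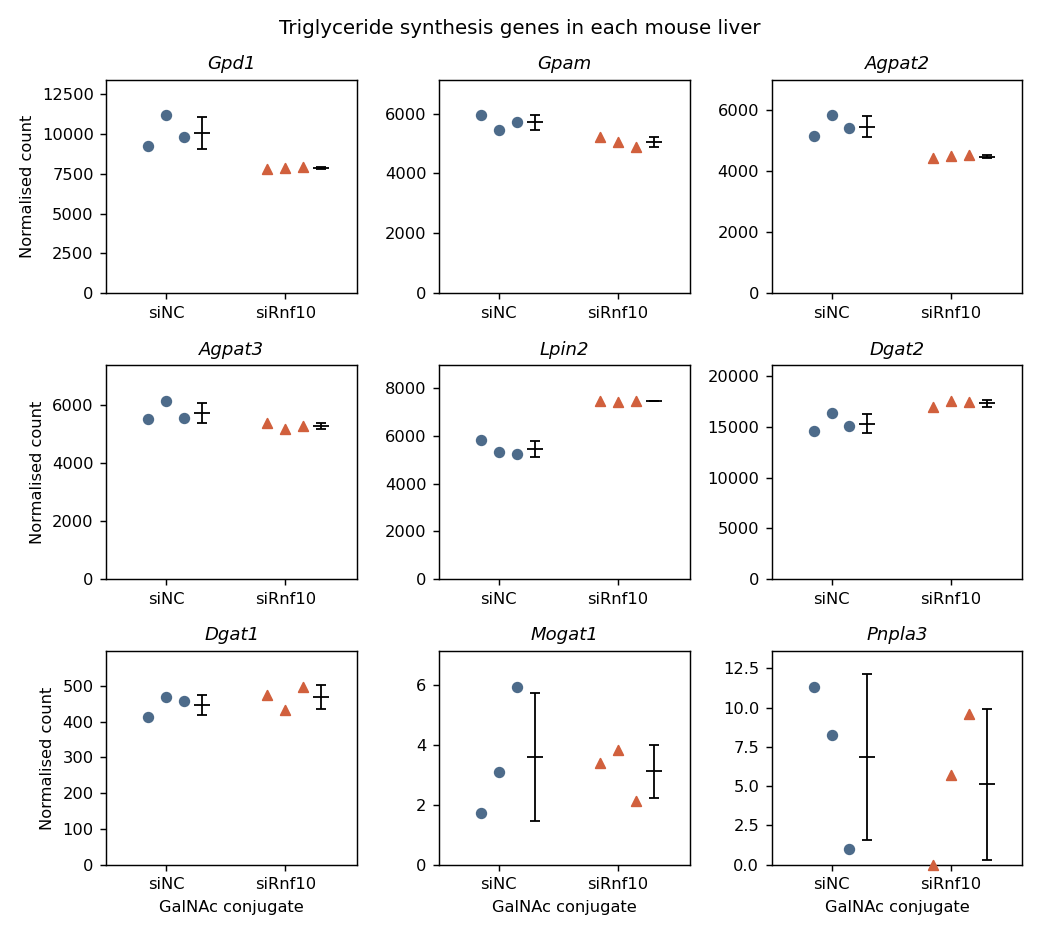
Normalised counts (vertical axes, linear and starting at 0, with a scale for each gene) of the 9 triglyceride synthesis genes in the livers of GalNAc-siNC mice (circles) and GalNAc-siRnf10 mice (triangles). Each point is 1 mouse and the bars show mean ± SD (n = 3); the groups are apart for Gpd1, Gpam, Agpat2, Agpat3, Lpin2 and Dgat2, and overlap for Dgat1, Mogat1 and Pnpla3.

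Supply of the glycerol backbone was examined first. Gpd1 (ENSMUSG00000023019, GRCm38 chr15:99717515-99725005, plus strand) encodes the cytosolic dehydrogenase that makes glycerol-3-phosphate. Its normalised count was 9223, 11163 and 9802 in GalNAc-siNC mice 1 to 3 and 7769, 7875 and 7910 in GalNAc-siRnf10 mice 1 to 3. Every knockdown liver was below every control liver, and the control livers varied far more. Means were 10063 ± 996 and 7851 ± 73.8 (SD, n = 3 each), a log2 fold change of -0.36 (SE 0.066; edgeR, adjusted p = 0.00130). The call held when each mouse was left out. Among the other genes of this step, Gpd1l, a relative of Gpd1, rose (0.30, SE 0.079; edgeR, adjusted p = 0.0177). That call was lost without GalNAc-siRnf10 mouse 1 (0.26, edgeR adjusted p = 0.120) or mouse 3 (0.29, 0.0904). Gpd2, the mitochondrial dehydrogenase, had a log2 fold change of -0.13 and did not pass the test (edgeR, adjusted p = 0.344). Neither did Gk, the glycerol kinase (0.10, 0.396), nor Aqp9, a glycerol channel of hepatocytes (-0.12, 0.198).

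The acylation of glycerol-3-phosphate is catalysed by the GPAT enzymes. Gpam (ENSMUSG00000024978, chr19:55067268-55127238, minus strand) encodes the mitochondrial form, GPAT1. Normalised counts of Gpam were 5943, 5451 and 5730 in the control mice and 5222, 5046 and 4870 in the knockdown mice. The groups were apart, by less than the difference seen for Gpd1. Means were 5708 ± 247 and 5046 ± 176 (SD, n = 3 each), and the log2 fold change of -0.18 (SE 0.060, 95% interval -0.31 to -0.05) did not pass the threshold after adjustment (edgeR, adjusted p = 0.0606). Gpam passed it without GalNAc-siNC mouse 1 (-0.15, edgeR adjusted p = 0.0289) and without GalNAc-siNC mouse 2 (-0.21, 0.0256). Gpat4, a GPAT of the endoplasmic reticulum, moved the other way. Gpat4 normalised counts were 3862, 3859 and 3925 in control livers and 5055, 5161 and 5167 after knockdown. The knockdown livers were all higher, with a log2 fold change of 0.40 (SE 0.058; edgeR, adjusted p = 0.000123). The low-level relatives Gpat3 (-0.23, edgeR adjusted p = 0.439) and Gpat2 (0.48, 0.396) did not pass the test, and their groups overlapped.

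Lysophosphatidic acid acyltransferases carry out the next step. Agpat2 (ENSMUSG00000026922, chr2:26593057-26604417, minus strand) is the isoform whose loss causes lipodystrophy. Control mice had Agpat2 normalised counts of 5155, 5837 and 5413, and knockdown mice 4439, 4486 and 4520. The knockdown livers lay close together and below all controls. Means were 5468 ± 344 and 4482 ± 40.7 (SD, n = 3 each), a log2 fold change of -0.29 (SE 0.062; edgeR, adjusted p = 0.00445), and the call held when each mouse was left out. It came close to the threshold without GalNAc-siRnf10 mouse 1 (-0.28, edgeR adjusted p = 0.0489), mouse 2 (-0.29, 0.0386) or mouse 3 (-0.29, 0.0367). A stretch of 64 exonic bases is shared with Egfl7 on the opposite strand, which had at most 247 counts, fewer than the difference between the groups. Agpat3 (ENSMUSG00000001211, chr10:78269178-78352489, minus strand) also acylates phospholipids. Its normalised count was 5512, 6143 and 5570 in control mice and 5384, 5190 and 5299 in knockdown mice. The groups did not overlap but came close. The log2 fold change was -0.12 (SE 0.061, 95% interval -0.25 to 0.01; edgeR, adjusted p = 0.234), and it varied with the mouse left out and with a correction for length and GC content. It was -0.15 without GalNAc-siNC mouse 1 (edgeR, adjusted p = 0.0326), -0.07 without GalNAc-siNC mouse 2 (0.475) and -0.01 with offsets for gene length and GC content (0.917). Agpat1 (-0.21, 0.360), Agpat5 (-0.01, 0.968) and Lclat1, which remodels cardiolipin (-0.10, 0.525), did not pass the same test. Agpat4 did not pass the filter on low counts.

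Lipins convert phosphatidic acid to diacylglycerol. Lpin2 (ENSMUSG00000024052, chr17:71182560-71249817, plus strand), whose promoter window is shown above, is abundant in liver. Its normalised count was 5832, 5328 and 5231 in control mice and 7468, 7450 and 7461 in knockdown mice. The knockdown livers were almost equal and all above the controls. Means were 5464 ± 323 and 7460 ± 8.94 (SD, n = 3 each), a log2 fold change of 0.45 (SE 0.060; edgeR, adjusted p = 5.32e-05), which held when each mouse was left out. Lpin1, a lipin that also acts as a transcriptional coactivator, showed the largest difference of the glycerolipid genes tested. Lpin1 normalised counts were 2093, 1739 and 1776 in control livers and 7115, 7369 and 7064 after knockdown. This was a 3.84-fold difference, with a log2 fold change of 1.94 (SE 0.074; edgeR, adjusted p = 1.01e-11). Lpin3, the least abundant lipin, had a log2 fold change of -0.39 and did not pass the test (edgeR, adjusted p = 0.0661). Without GalNAc-siNC mouse 1 it did (-0.45, edgeR adjusted p = 0.0199). Of the phosphatases of the other family, Plpp3 fell (-0.21, SE 0.063; edgeR, adjusted p = 0.0302), a call lost without GalNAc-siRnf10 mouse 1 (-0.19, 0.186), mouse 2 (-0.25, 0.0689) or mouse 3 (-0.20, 0.160). Plpp1 (0.10, 0.777) and Plpp2 (-0.14, 0.386) did not pass, and Plpp1 shares 452 exonic bases with Mtrex on the opposite strand, so its count is uncertain.

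Diacylglycerol acyltransferases form the triglyceride. Dgat2 (ENSMUSG00000030747, chr7:99153658-99182719, minus strand) esterifies mainly newly made fatty acids and was the most abundant of the 9 genes per kilobase. Its normalised count was 14588, 16320 and 15078 in control mice and 16947, 17539 and 17478 in knockdown mice. The groups did not overlap, though the highest control lay near the lowest knockdown liver. Means were 15329 ± 893 and 17321 ± 326 (SD, n = 3 each), a log2 fold change of 0.18 (SE 0.056; edgeR, adjusted p = 0.0448). The call was lost without GalNAc-siNC mouse 3 (0.16, edgeR adjusted p = 0.121), without GalNAc-siRnf10 mouse 1 (0.19, 0.134), mouse 2 (0.17, 0.197) or mouse 3 (0.17, 0.191), and in DESeq2 (0.18, adjusted p = 0.0859). Dgat1 (ENSMUSG00000022555, chr15:76502015-76511953, minus strand), which also re-esterifies incoming fatty acids, had normalised counts of 414, 468 and 456 in control mice and 475, 431 and 497 in knockdown mice. These groups overlapped, and the log2 fold change was 0.07 (SE 0.102, 95% interval -0.15 to 0.28; edgeR, adjusted p = 0.728). It ranged from 0.01 to 0.14 over the alternatives and was called in none of them. Tmem68, an acyltransferase of an alternative route, did not pass the test (0.17, edgeR adjusted p = 0.392).

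Mogat1 (ENSMUSG00000012187, chr1:78510991-78538173, plus strand) makes diacylglycerol from monoacylglycerol, and was barely detected. It had 2, 3 and 6 raw counts in control mice and 3, 4 and 2 in knockdown mice. Pnpla3 (ENSMUSG00000041653, chr15:84167837-84187236, plus strand), a lipid droplet protein with lipase and acyltransferase activity, had 13, 8 and 1 raw counts in control mice and 0, 6 and 9 in knockdown mice. The groups overlapped for both genes, and a difference was not detectable at this depth (exact two-sided permutation test, p = 0.9 for Mogat1 and 0.7 for Pnpla3). In the edgeR fit with no filter their adjusted p was 0.963 and 0.833. The count of 0 allows a share of up to 1.12e-05% of that library (3 counts), which covers counting error only. Mogat2, the intestinal relative of Mogat1, had 16, 30 and 32 raw counts in control mice and 7, 19 and 9 in knockdown mice. Its log2 fold change was -1.06 (SE 0.452; edgeR, adjusted p = 0.139), and it passed the test without GalNAc-siNC mouse 1 (-1.37, edgeR adjusted p = 0.0313).

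**Figure D2:**
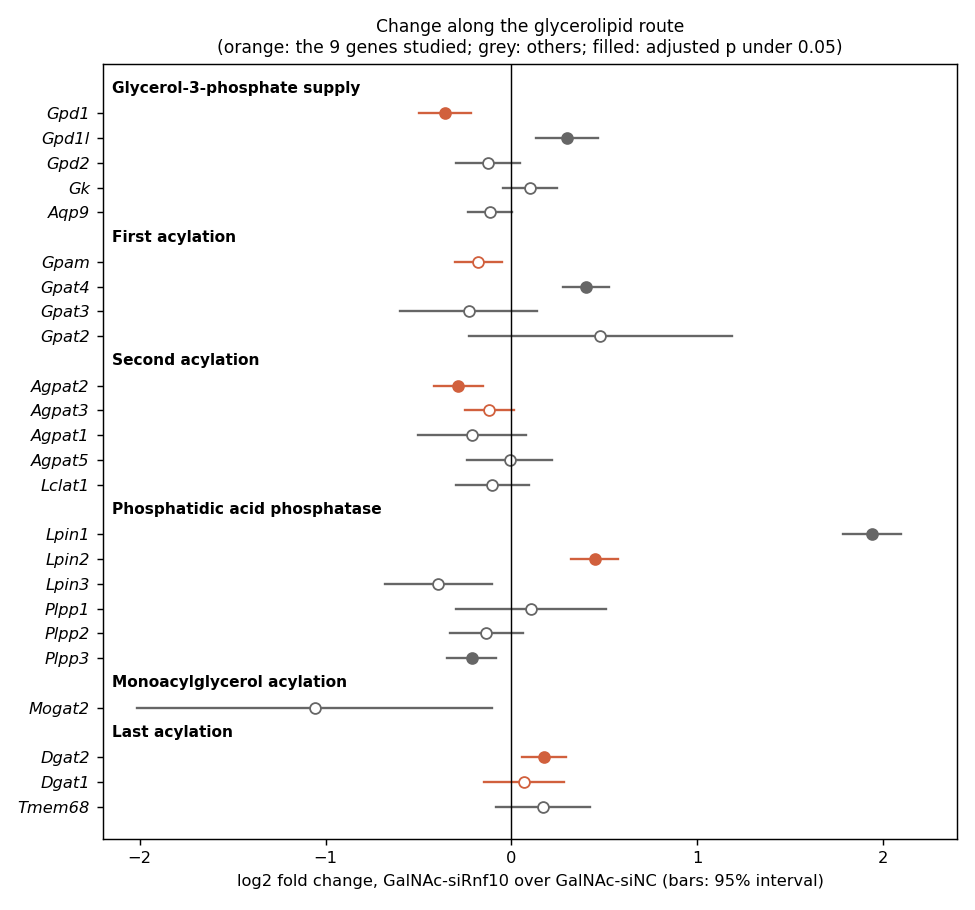
Log2 fold change of GalNAc-siRnf10 over GalNAc-siNC livers (horizontal axis) for the tested genes of glycerolipid synthesis, by step, with 95% intervals (edgeR, n = 3 mice in each group). Orange marks the 9 genes studied and filled points had an adjusted p under 0.05; Lpin1 at 1.94 lies far from the rest, Lpin2, Gpat4, Gpd1l and Dgat2 are above 0, and Gpd1, Agpat2 and Plpp3 are below.

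Levels of different genes were compared as normalised counts per kilobase of gene length. In control livers the order was Dgat2 (4972), Gpd1 (3398), Agpat2 (2567), Gpam (857), Agpat3 (737), Lpin2 (447) and Dgat1 (146). Pnpla3 (4.43) and Mogat1 (2.30) came last. The ranges of neighbours in this order did not overlap among control livers, except those of Pnpla3 and Mogat1. After knockdown the order of the 7 tested genes was the same, with Lpin2 at 610 and Agpat3 at 679 per kilobase, against 447 and 737 in control livers.

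The balance within each enzyme family was then compared as the share of the family's counts per kilobase in a library, which does not depend on scaling between libraries. Lpin2 held 63.6%, 63.5% and 63.7% of the lipin counts in control mice and 44.4%, 43.2% and 44.6% in knockdown mice. Lpin2 therefore held a smaller share after knockdown although its own level was higher. Lpin1 held 26.8% ± 1.31 (SD, n = 3) and 52.3% ± 0.372 (SD, n = 3), and was the most abundant lipin per kilobase in all 3 knockdown livers. That order depended on the correction for gene length. Without it Lpin2 had the higher normalised count in each knockdown liver (7468, 7450 and 7461 against 7115, 7369 and 7064 for Lpin1). Gpam held 58.7%, 56.3% and 57.6% of the GPAT counts in control mice and 49.3%, 48.2% and 47.0% in knockdown mice. The share of Gpat4 was 39.1% ± 0.910 and 48.8% ± 1.10 (SD, n = 3 each), so that both had nearly the same share after knockdown. Smaller differences were seen in the other families. Agpat2 held 74.9% ± 0.260 and 72.7% ± 0.234, and Agpat3 21.5% ± 0.357 and 23.5% ± 0.499 (SD, n = 3 each). Gpd1 held 91.0% ± 1.23 and 88.1% ± 0.378 of the dehydrogenase counts (SD, n = 3 each). Dgat2 held 97.2% ± 0.0959 and 97.4% ± 0.203 (SD, n = 3 each), and these groups overlapped. In 10 of 16 shares tested the groups did not overlap, each with an exact two-sided permutation p of 0.1 (0.16 after Benjamini-Hochberg adjustment), the smallest that 3 mice against 3 allow, so that no share could pass 0.05.

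**Figure D3:**
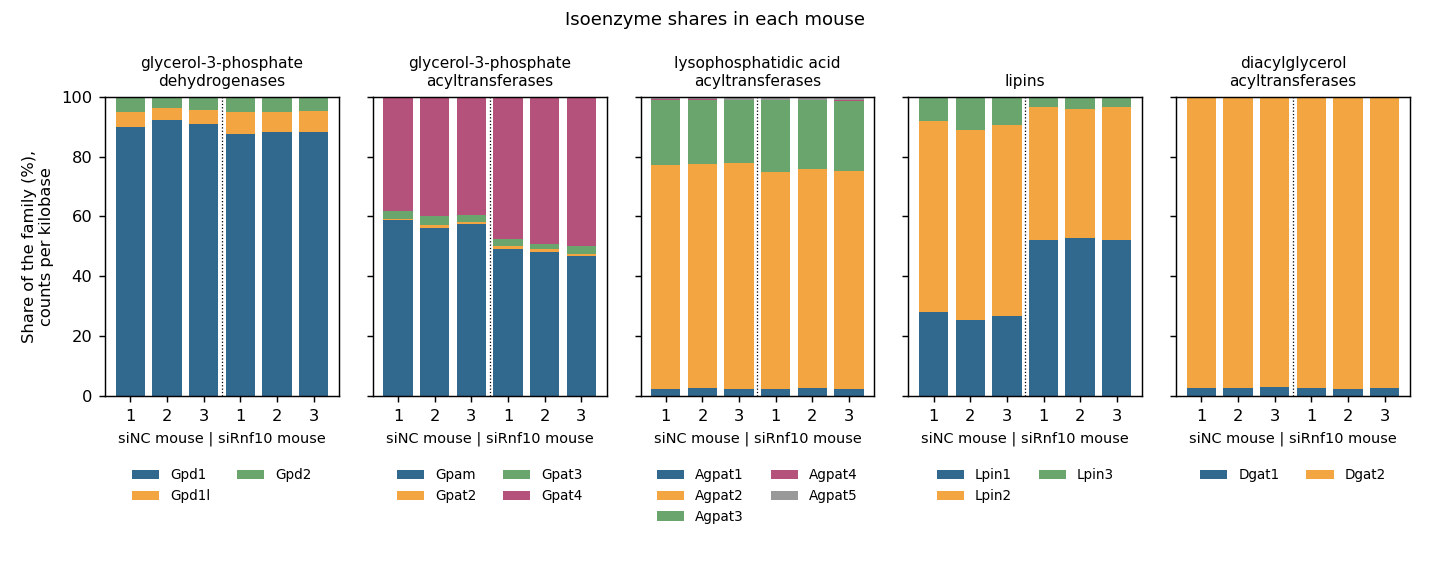
Share of each enzyme in its family's counts per kilobase (vertical axis, percent) in each of the 6 livers (bars; GalNAc-siNC mice left of the dotted line and GalNAc-siRnf10 mice right of it). Lpin1 fills 26.8% of the lipin bars on average in control livers and 52.3% after knockdown, Gpam and Gpat4 approach each other, and the diacylglycerol acyltransferase bars are nearly all Dgat2.

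Other enzymes of the route, from a list of 18 genes, were called in 4 of 17 tested cases (14.0% of all tested genes were called), with Lpin1, Gpat4 and Gpd1l higher and Plpp3 lower, and a median log2 fold change of -0.10. The next 3 lists had 3 of 15, 2 of 13 and 3 of 16 tested genes called, shares close to the 14.0% of all tested genes. In the branch to phospholipids, Etnk2 (0.34) and Pemt (0.33), which methylates phosphatidylethanolamine, rose, and Etnk1 (-0.25) fell. Of the 13 tested genes of acyl-CoA supply, Fabp2 rose (0.46) and Acsl3 fell (-0.45). The called regulators of lipid synthesis were all lower. These were Insig1 (-0.39) and Scap (-0.33), which control SREBP processing, and Mlxipl (-0.19), which encodes ChREBP. Over the 16 tested regulators the median log2 fold change was only -0.025.

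Genes that make the fatty acids and genes that store or release triglyceride also differed in both directions. Their lists were not tested against the synthesis genes. In de novo lipogenesis 8 of 14 tested genes were called, 3 higher and 5 lower, beside 6.71% and 7.28% of all tested genes. The citrate transporter gene Slc13a5 (-1.56) and the acetyl-CoA carboxylase gene Acacb (-0.61) fell, and the elongase gene Elovl6 (0.61) and Thrsp (0.51), a lipogenic gene induced by thyroid hormone, rose. The median log2 fold change of that list was -0.083. Among 17 tested lipid droplet and lipolysis genes 6 were called, 2 higher and 4 lower, beside the same background. The droplet coat gene Plin4 rose most (2.59), and G0s2, an inhibitor of adipose triglyceride lipase (-0.67), Lipe, encoding hormone-sensitive lipase (-0.47), and Plin2 (-0.38) fell. The median there was 0.036. Of 17 tested core clock genes 7 were called, beside 14.0% of all tested genes, with Per1 (1.74), Ciart (1.29) and Cry1 (0.75) among 6 that were higher and Nr1d1 (-0.68) the 1 that was lower. The part of clock phase in the differences of the synthesis genes was not tested.

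The spread between mice was compared with and without the control library that stood apart. The SD of the normalised count was smaller after knockdown than in controls for 6 of the 7 tested genes, Dgat1 being the exception, and for 66.2% of all tested genes. Without GalNAc-siNC mouse 1 this was still so for 6 of the 7, but for 51.4% of all tested genes. The median coefficient of variation over all tested genes was 11.1% in control livers, 7.74% in control livers without mouse 1 (n = 2) and 7.33% in knockdown livers. For Lpin2, the control SD of 323 was 68.8 without that mouse. An SD over 2 mice is less precise than 1 over 3.

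Over the 6 libraries, the tested genes nearest to Lpin2 by root mean square difference of mean-centred log2 CPM were Slc22a3 (0.0225), Morc3 (0.0239) and Homer2 (0.0290). The nearest to Gpd1 were Slc38a10 (0.0108), Hyou1 (0.0126) and Nectin1 (0.0220).

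**Figure D4:**
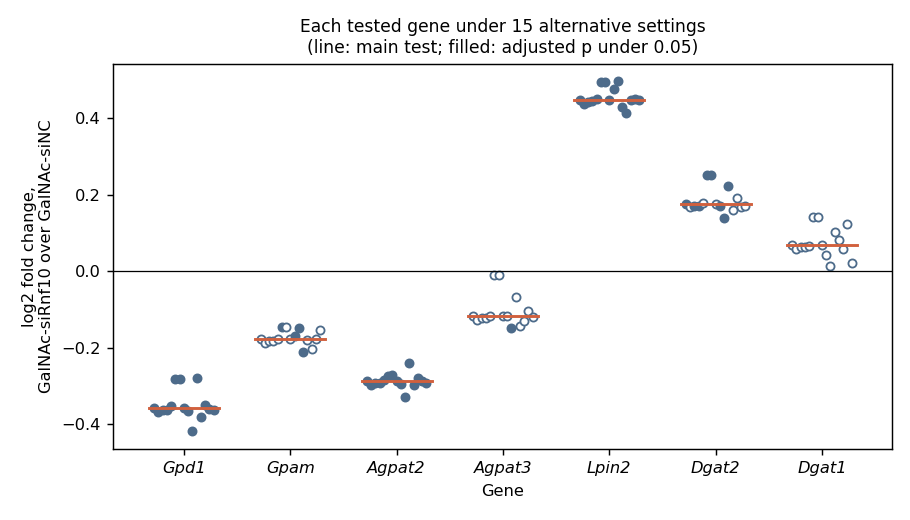
Log2 fold change (vertical axis) under the main test and 15 alternatives, for each tested synthesis gene (horizontal axis). Lpin2, Gpd1 and Agpat2 were called in all 15, with ranges of 0.41 to 0.50, -0.42 to -0.28 and -0.33 to -0.24, Dgat2 in 8, Gpam in 4, Agpat3 in 1 and Dgat1 in none.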

How the data were processed

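Liver RNA was extracted with TRIzol, and the authors prepared stranded mRNA libraries and aligned paired-end reads by HISAT2 to GRCm38 (mm10). The deposited values are raw counts of each gene. The counting tool, annotation release and strand setting are not given in the sources used here, nor are the dose and injection times in the labels. The deposited gene length was used for values per kilobase. Symbols came from GENCODE M21, which named 55227 of 55487 identifiers.

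Groups were compared by the robust quasi-likelihood F-test of edgeR 4.0.16 under R 4.3.3, after filterByExpr and TMM scaling, with treatment as the only term and Benjamini-Hochberg adjustment over 14046 genes. The biological coefficient of variation was 9.28%. At these depths 3 counts are 9.08e-06% to 1.12e-05% of a library. The procedure was tested on simulated data. Alternatives were other normalizations and filters, DESeq2 1.42.0, limma 3.58.1 voom, offsets for length and GC content, a block for mouse number, other thresholds and each mouse left out.

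The members and lists were chosen with earlier results of these data known. Named were the 9 genes, every gene of their enzyme families, called genes of the other glycerolipid enzymes, up to 4 called genes with the largest change in each other list, Rnf10, and the 3 genes nearest to the most changed member in each direction. Named beyond this rule, after their values were seen, were Gk, Aqp9, Lclat1, Plpp1, Plpp2, Tmem68, Spp1, Egfl7 and Mtrex. The marker Tf was not matched by symbol.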

Additional observations from a re-analysis of the deposited data

How the results depend on the processing

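Over 15 alternatives for each of the 7 tested synthesis genes, 93 of 105 values kept their direction and their side of the threshold. Another 7, all of Dgat2, lost the call, 5 gained it (Gpam 4, Agpat3 1) and 0 changed direction. For Dgat2 the other losses were with upper quartile scaling (edgeR, adjusted p = 0.0567) and the block below. The number of genes called was 1965, and became 1042 at an adjusted p under 0.01 and 635 with a 1.5-fold minimum, at which 0 of the 9 synthesis genes and 1 of the other enzymes were called. At an adjusted p under 0.01, 2 other enzymes were called. With each mouse left out, 1053 to 2864 genes, 3 to 6 synthesis genes and 2 to 6 other enzymes were called. The lowest number of genes was without GalNAc-siRnf10 mouse 1 and the highest without GalNAc-siNC mouse 1, and the cause was not tested. Offsets for length and GC content moved Agpat3 from -0.12 to -0.01. Shares from raw counts, without length, differed by -2.95 points for Agpat2, 23.8 for Lpin1 and -4.45 for Gpd1. Deviations of same-numbered mice from their group means correlated at -0.00099, 0.027 and -0.034 across genes, and those of mice with unlike numbers at -0.036 to 0.037. Deviations within a group cancel out, so these values do not settle whether mouse numbers pair the samples. With the replicate block, 1816 genes, 3 synthesis genes and 4 other enzymes were called, and Dgat2 had an adjusted p of 0.0528 (edgeR). No other call of a synthesis gene changed with the block. Mogat1 and Pnpla3 entered only the fit with no filter, where neither was called. The spread without GalNAc-siNC mouse 1 was computed after seeing the data.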
